A study of Mus musculus with 18 samples.

Results

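The difference between the stroke response of mast cell-engrafted dura and that of wild-type dura was measured across all annotated genes, as (engrafted stroke minus engrafted naive) minus (wild-type stroke minus wild-type naive). The dura mater is the tough outer membrane around the brain. All arrays of those 4 groups were taken, which gave 12 of the 18 arrays of the series, 3 per group and 1 dura of 1 mouse per array. The mice were male and 17 to 21 weeks old. Engrafted mice had the WBB6F1-KitW/W-v genotype, which leaves mice without mast cells, and received mast cells into a vein 8 to 10 weeks before the experiment. Wild-type mice were WBB6F1-Kit+/+. Stroke mice had the middle cerebral artery closed with a filament for 30 minutes and the dura was taken 2 days later, while naive mice of matched age had no stroke. The remaining 6 arrays came from WBB6F1-KitW/W-v mice that received no mast cells, called deficient here, 3 after stroke and 3 naive, and are set beside the comparison where stated.

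Mast cells sit along the vessels of the dura and hold granules with proteases, histamine and cytokines that they release within minutes of activation. They depend on the receptor Kit, so mutations that weaken Kit leave a mouse without them, and cultured mast cells put into such a mouse fill many tissues again. The difference of the stroke responses asks which genes answered stroke differently once mast cells had been put back into Kit-mutant mice than in mice with normal Kit. The 2 categories differ in more than mast cells: the engrafted mice still carried mutant Kit in all their own cells, including blood-forming cells and pigment cells, and had been through the engraftment. Kit genotype, engraftment and any strain history therefore cannot be told apart in this contrast. Stroke was set against naive mice, and sham-operated mice were not analysed here. In pieces of whole tissue, fewer cells of a type and less RNA per cell cannot be told apart.

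Values were log2 summary values per probe set between 3.42 and 14.06, with array medians of 7.77 to 7.91 and lower quartiles of 6.09 to 6.23. Between arrays of the same group Pearson's r over probe sets was 0.985 to 0.995. The median standard error (SE) was 0.14 for the difference of responses and 0.10 for 1 response, a precision set by the number of arrays. Of the 12 arrays, engrafted naive 3 and wild-type stroke 2 stood apart in the choroid plexus transcript Ttr (10.17 and 9.03, against 13.03 to 13.78 in the other 10), and engrafted stroke 3 and engrafted naive 3 were highest in a list of red cell precursor genes (list scores 1.10 and 0.80). The counts of calls are given without these arrays too, beside the result or in the closing part. So are many, but not all, of the list medians that moved without them.

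The mast cell transcripts were present in both categories compared. Cpa3, carboxypeptidase A of mast cell granules, read 9.47, 9.79 and 9.70 in engrafted stroke dura and 10.90, 9.67 and 8.76 in engrafted naive dura, 5.67, 5.82 and 5.74 in deficient stroke dura and 5.82, 5.66 and 5.80 in deficient naive dura, and 9.17, 9.29 and 8.39 in wild-type stroke dura and 9.79, 9.13 and 9.41 in wild-type naive dura. Engrafted and wild-type arrays overlapped, and all deficient arrays lay several log2 units lower. The stroke response of Cpa3 was -0.12 ± 0.37 in engrafted and -0.49 ± 0.37 in wild-type dura, a difference of 0.37 ± 0.52 (adjusted p = 0.795) with a 95% interval of -0.74 to 1.48. Mcpt4, a chymase of connective tissue mast cells, gave 0.38 ± 0.52 (adjusted p = 0.785). Kit itself read 9.29, 8.76 and 9.32 in engrafted stroke dura and 9.19, 9.07 and 9.08 in engrafted naive dura, against 9.17, 8.92 and 8.80 in wild-type stroke dura and 9.41, 9.83 and 9.36 in wild-type naive dura, and its response was 0.01 ± 0.15 in engrafted and -0.57 ± 0.15 in wild-type dura, with a difference of 0.58 ± 0.21 (adjusted p = 0.27). Of the 21 measured mast cell genes 0 passed in the difference by limma (1 at an unadjusted p under 0.05), 15 had a positive difference and the median was 0.13, against -0.02 and 46.4% positive over all tested probe sets. The signs of Cpa3 and Mcpt4 depended on engrafted naive 3: without it the differences were -0.14 and -0.13.

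In the difference of the stroke responses 23 of 21640 probe sets passed an adjusted p of 0.05 (limma with Benjamini-Hochberg adjustment, 0.106%), each for a different gene. Of these 21 responded less in engrafted than in wild-type dura (0.097%) and 2 had a positive difference (0.00924%). At an unadjusted p under 0.05 there were 2855 probe sets (13.2%; 5.7% higher and 7.49% lower), where 1082 would be expected if nothing differed. All 21 lower genes had risen in wild-type dura, by 0.91 to 2.86 on the log2 scale (median 1.46), while their engrafted responses ran from -0.71 to 0.76 (median 0.27). The 2 higher genes, Arxes1 and Arxes2, had fallen in wild type and had positive estimates in engrafted dura that did not pass. Of the 23 genes, only Prok2 and Vill passed in the engrafted response itself. Wild-type stroke arrays lay above all 9 other arrays of the contrast in 21 of the 23 (3.66% of all probe sets) and below them in 1, Arxes1 (4.21%). These values and the calls rest on the same arrays, so the counts among them are a description.

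The 6 deficient arrays enter no mean of that contrast, but they entered the estimate of its spread. The response of deficient dura was nearer to the engrafted than to the wild-type response for 21 of the 23 genes, and the exceptions were Arxes1 and Arxes2. The same held for 43.5% of all tested probe sets and for 83.5% of the 1351 that rose in wild type. Calling genes on a large wild-type response favours this count, so it is a description. For the 21 lower genes it ran from -0.25 to 0.50 (median 0.26), beside -0.71 to 0.76 (median 0.27) in engrafted and 0.91 to 2.86 in wild-type dura. The difference of the engrafted and deficient responses was not tested here.

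**Figure D1:**
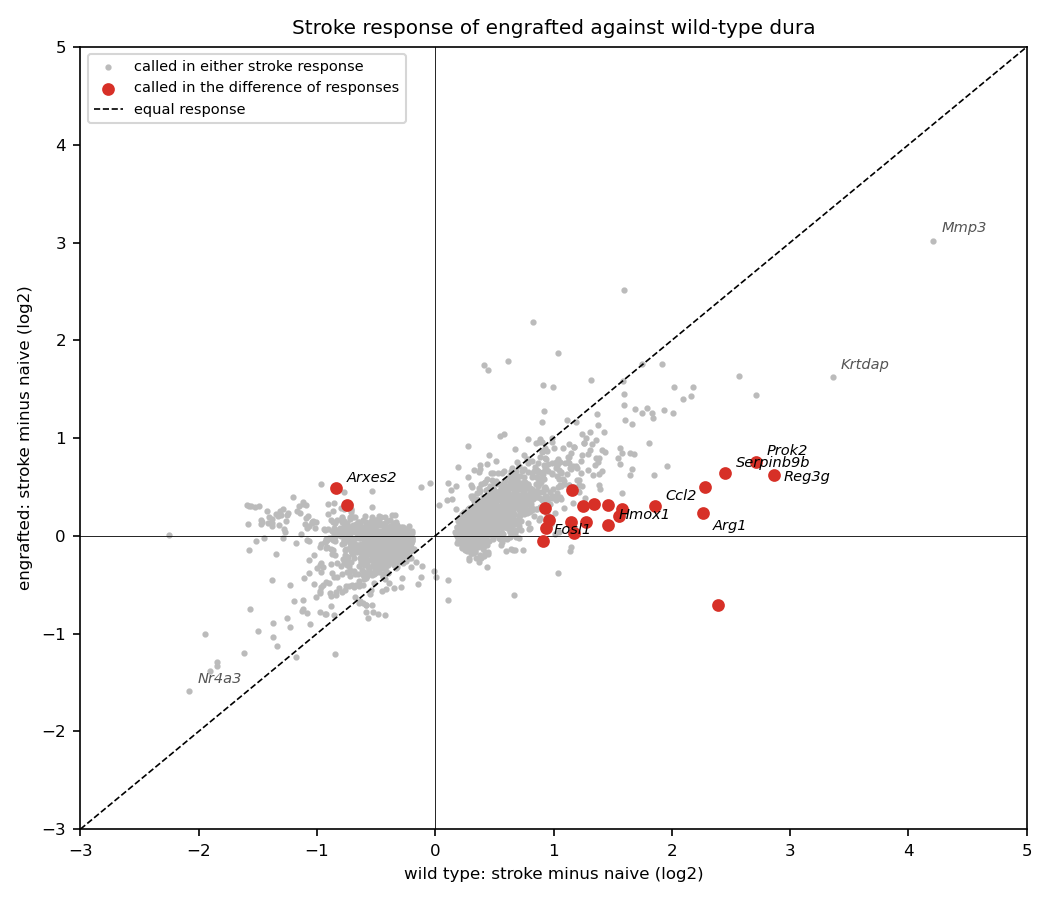
Log2 stroke response (stroke minus naive, 3 arrays each) of engrafted dura (vertical axis) against that of wild-type dura (horizontal axis) for the probe sets called in either response, with the 23 genes called in the difference in red and the line of equal response dashed. The 21 red points on the right, such as Arg1 at 0.23 and 2.26, lie below the line, and Arxes1 and Arxes2 lie above it on the left.

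Arg1, arginase 1, which splits arginine into ornithine and urea and marks alternatively activated macrophages in mice, had the smallest p. It read 6.43, 6.57 and 6.73 in engrafted stroke dura and 6.19, 6.35 and 6.50 in engrafted naive dura, against 8.33, 7.98 and 8.26 in wild-type stroke dura and 6.11, 5.72 and 5.98 in wild-type naive dura. Every wild-type stroke array lay above the 9 others, engrafted stroke and naive arrays overlapped, and the wild-type naive mean lay below the lower quartile of the arrays. Arg1 rose in wild type, with log2 responses of 0.23 ± 0.11 in engrafted and 2.26 ± 0.11 in wild-type dura and a difference of -2.03 ± 0.16 (adjusted p = 3.75e-05). Near the dim end the array may understate such a rise. Its call was kept in all 22 alternative fits that tested it, with values of -2.13 to -1.92.

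Fosl1 encodes Fra-1, a Fos-family subunit of the AP-1 transcription factor. It read 6.89, 7.01 and 7.03 in engrafted stroke dura and 6.95, 7.07 and 7.05 in engrafted naive dura, against 7.48, 7.67 and 7.85 in wild-type stroke dura and 6.79, 6.77 and 6.72 in wild-type naive dura. The engrafted arrays overlapped between stroke and naive, and the difference was -0.95 ± 0.11 (adjusted p = 0.00351). Tnfrsf12a encodes Fn14, the receptor for the cytokine TWEAK, and read 8.83, 8.88 and 8.68 in engrafted stroke dura and 8.61, 8.82 and 8.84 in engrafted naive dura, against 9.79, 9.59 and 10.02 in wild-type stroke dura and 8.51, 8.74 and 8.64 in wild-type naive dura. Its stroke response was 0.03 ± 0.10 in engrafted and 1.17 ± 0.10 in wild-type dura, with a difference of -1.14 ± 0.15 (adjusted p = 0.00428). For both genes the engrafted estimate was close to 0 while each wild-type stroke array stood above the other 9.

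For Serpinb9b, an intracellular inhibitor of serine proteases, and Prok2, a secreted ligand made by neutrophils among other cells, the engrafted estimates had the wild-type sign and were smaller. Serpinb9b read 7.32, 7.13 and 7.05 in engrafted stroke dura and 6.45, 6.49 and 6.65 in engrafted naive dura, against 8.83, 8.68 and 9.41 in wild-type stroke dura and 6.43, 6.76 and 6.39 in wild-type naive dura. Engrafted stroke arrays lay above engrafted naive arrays (response 0.64 ± 0.16, adjusted p = 0.0735) and below every wild-type stroke array, with a difference of -1.81 ± 0.23 (adjusted p = 0.00394). Prok2 read 7.34, 7.51 and 7.20 in engrafted stroke dura and 6.51, 6.56 and 6.70 in engrafted naive dura, against 8.60, 9.28 and 9.62 in wild-type stroke dura and 6.40, 6.55 and 6.41 in wild-type naive dura. It rose in both, by 0.76 in engrafted (adjusted p = 0.0497) and 2.71 in wild-type dura (adjusted p = 2.99e-07), and the difference was -1.95 ± 0.25 (adjusted p = 0.00394).

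Socs3, a feedback inhibitor of signalling by receptors that use the gp130 subunit, read 8.70, 8.88 and 8.88 in engrafted stroke dura and 8.29, 8.64 and 8.59 in engrafted naive dura, against 9.54, 9.47 and 9.70 in wild-type stroke dura and 8.08, 8.10 and 8.14 in wild-type naive dura. Engrafted stroke arrays were lower than wild-type stroke arrays by 0.75 ± 0.11. The groups did not overlap in naive dura either, where engrafted arrays were higher by 0.40 ± 0.11, and the difference of responses was -1.15 ± 0.16 (adjusted p = 0.00801). The deficient arrays read 8.94, 8.43 and 8.69 in deficient stroke dura and 8.29, 8.30 and 8.24 in deficient naive dura, and each lay above all wild-type naive and below all wild-type stroke arrays.

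Arg1, Fosl1, Serpinb9b, Prok2, Tnfrsf12a, Socs3, Pimreg and the predicted gene G530011O06Rik kept their calls in each of the 12 fits that left out 1 array of the contrast. The other 15 were lost in several of them, as given below. Of those 8, Fosl1, Prok2, Socs3 and Pimreg lost their calls without the 5 arrays of the series lowest in Ttr, where Arg1, Serpinb9b, Tnfrsf12a, G530011O06Rik, Reg3g, Tfpi2, Il22ra1 and Has2 kept theirs. The count of all calls ran from 8 without engrafted naive 2 or engrafted naive 3 to 52 without engrafted stroke 2, and was also more than 1.5 times lower without engrafted stroke 1 (9), engrafted stroke 3 (12), wild-type stroke 3 (14) or wild-type naive 1 (13), 2 (9) or 3 (12). Without the 2 arrays highest in red cell precursor genes, an alternative added after the data were seen, 3 of the 23 remained, Arg1, Fosl1 and Tgm1, and no called gene changed sign in any fit.

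**Figure D2:**
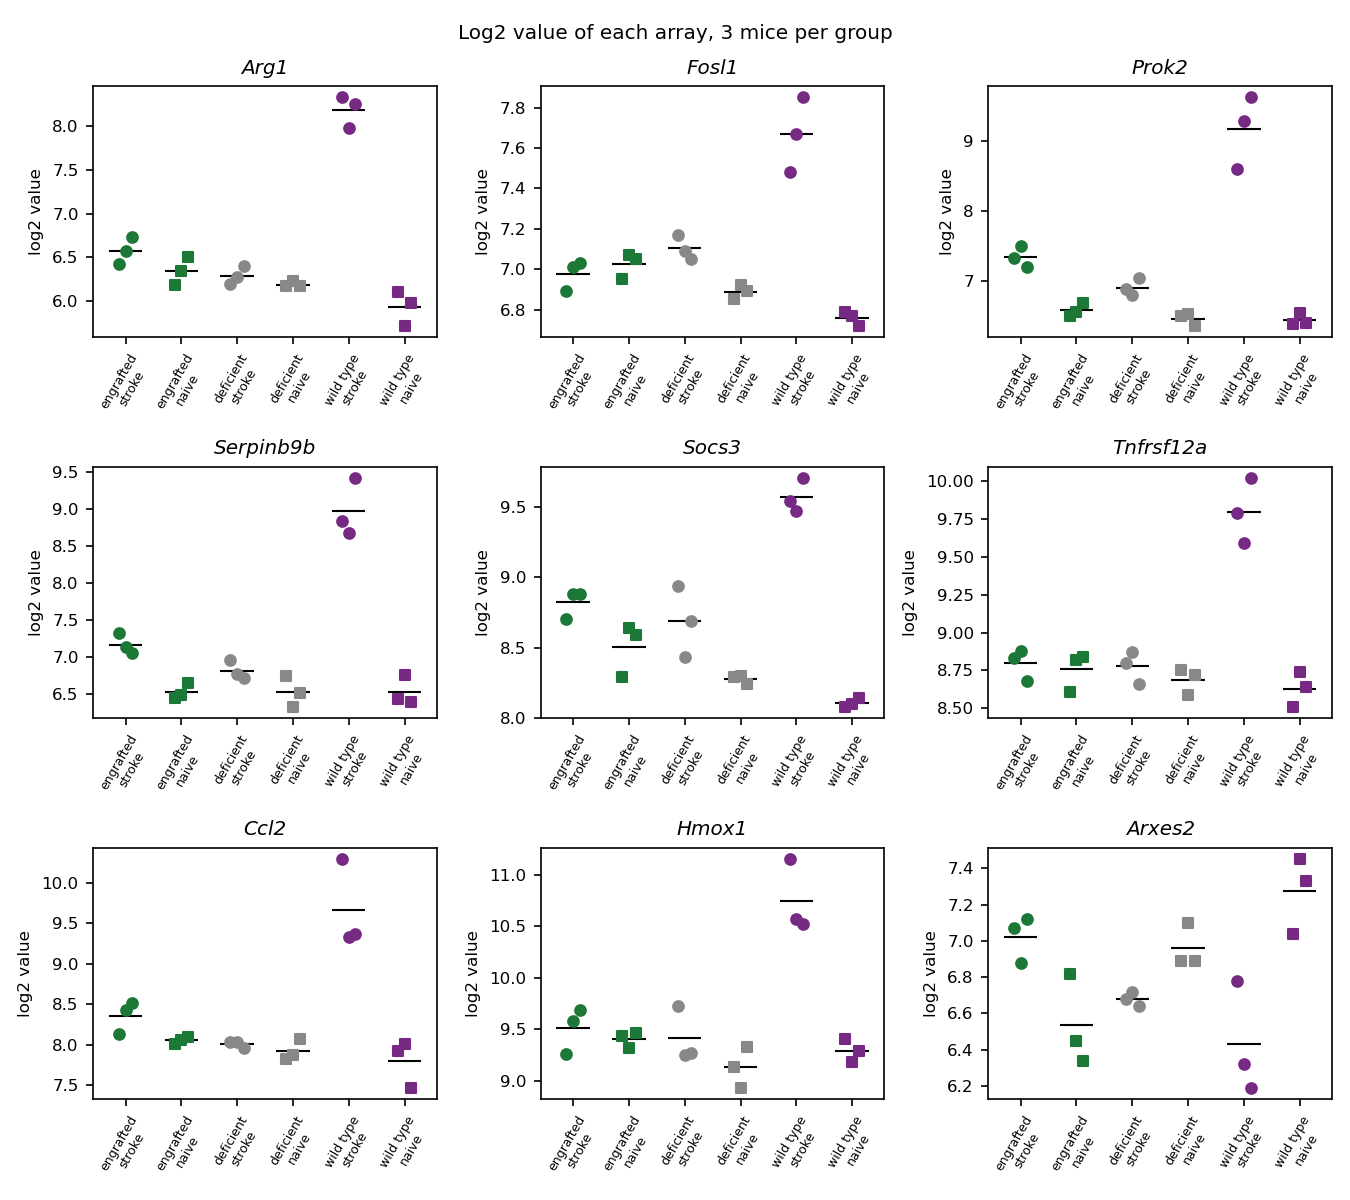
Log2 value of 9 genes in each of the 18 arrays (points, circles for stroke and squares for naive; bars are means of 3), with engrafted, deficient and wild-type dura from left to right. In the first 8 panels the 3 wild-type stroke arrays stand above the others, as for Hmox1 at 11.15, 10.57 and 10.52, and in the Arxes2 panel wild-type stroke dura is low.

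The difference of responses holds a part after stroke and a naive part. For the 21 lower genes engrafted minus wild type was -2.36 to -0.42 (median -1.01) after stroke and -0.12 to 0.96 (median 0.23) in naive dura. Engrafted naive dura had the higher mean in 20 of the 23 genes, against 51.3% of all tested probe sets and 74.7% of those that rose in wild type. The naive arrays enter the difference that chose the genes, which favours this count. The naive difference was the larger one in size only for Arxes2. Serpinb9b differed after stroke, with a naive estimate near 0 (-1.81 ± 0.16 after stroke and 0.00 ± 0.16 in naive dura). For Adamts5 the 2 parts were of similar size, -0.65 ± 0.13 after stroke and 0.48 ± 0.13 in naive dura.

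**Figure D3:**
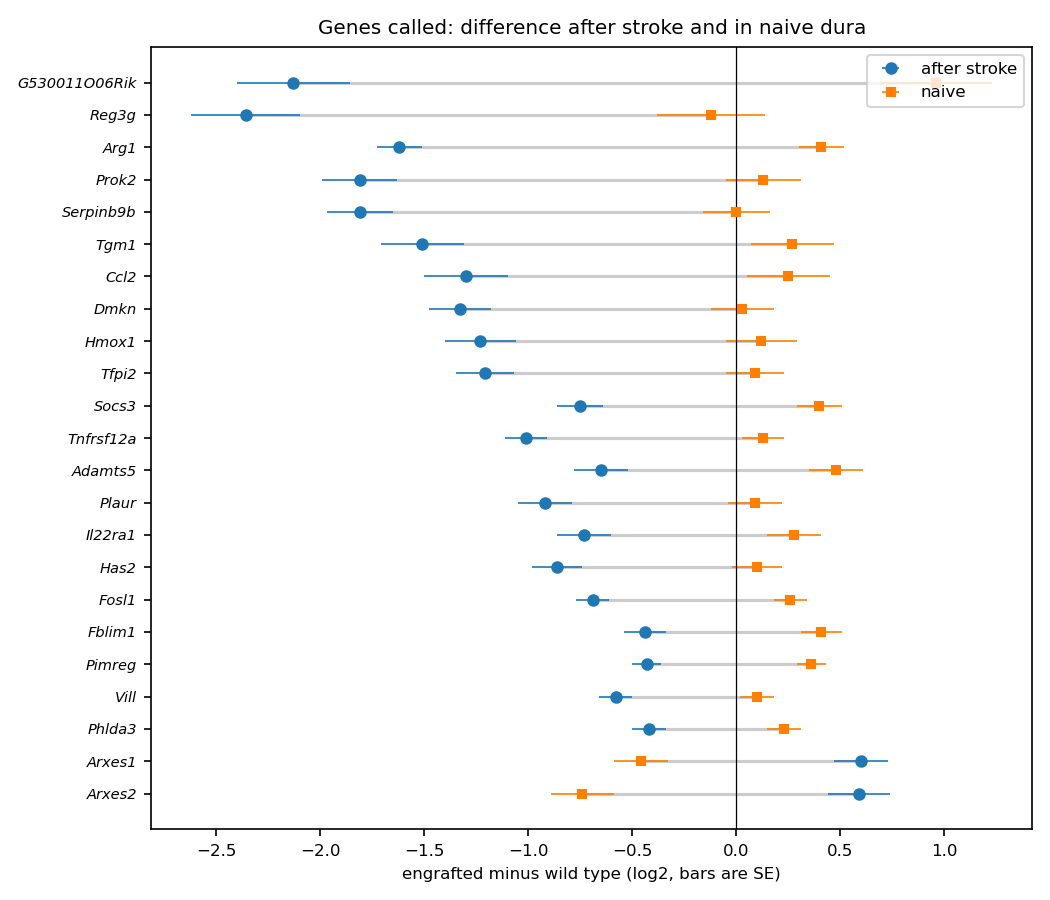
Engrafted minus wild-type log2 difference after stroke (blue circles) and in naive dura (orange squares) for the 23 called genes (rows; bars are SE, 3 arrays against 3). The points after stroke lie left of 0 for 21 genes and right of 0 for Arxes1 and Arxes2, while naive points lie near or right of 0 for most.

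RefSeq promoters (build GRCm38.p6, 250 bases before to 50 after the start site) were matched for 16 of the 23 genes, 23 promoters in all. Adamts5, Arg1, Ccl2, Fosl1, Has2, Hmox1 and Pimreg had no entry. They were read for 3 motifs chosen after the called genes were known, each on both strands, and none of them holds another. The first was TGANTCA, a loose form of the AP-1 site that allows any middle base. The others were TTCNNNGAA, the letters bound by STAT factors, and TGACGTCA, the cyclic AMP response element. TGANTCA was found in 8 of the 23 promoters (34.8%), against 7.81% of all 32851 mouse promoters in the table. By gene this was 6 of 16 (37.5%), against 8.97% of 27025. The middle base was A in the matches of Tfpi2 and Il22ra1, and G or C in those of Dmkn, Fblim1, Plaur and Prok2. Dmkn has 3 of the 8, and 2 of its promoters share 298 of 300 bases and the same site. TTCNNNGAA was found in 3 (13%), against 8.3%, and TGACGTCA in 0, against 1.79%. The STAT letters were found in Socs3, in Tgm1 (positions -173 and -64 from the start site) and in Vill (position 42). Of these genes only Socs3 was chosen for a window, although all of them responded less in engrafted dura. The windows chosen hold TGANTCA within 100 bases of the start site in genes that responded less in engrafted dura, except in Socs3. Tfpi2 and Fblim1 also have promoters at other start sites without these letters. Il22ra1, with its match at position -222, was not chosen for a window. They are chr7:24462363-24462462 on the plus strand for Plaur, chr6:99726413-99726512 on the minus strand for Prok2, chr4:141606073-141606172 on the minus strand for Fblim1, chr6:3968396-3968495 on the minus strand for Tfpi2, chr7:30763636-30763735 on the plus strand for Dmkn (each from 120 to 21 bases before the start site), and chr11:117969447-117969546 on the minus strand for Socs3 (180 to 81 bases before it). Capitals mark the motif.
Plaur: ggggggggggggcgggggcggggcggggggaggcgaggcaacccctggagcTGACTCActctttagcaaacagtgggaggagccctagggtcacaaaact
Prok2: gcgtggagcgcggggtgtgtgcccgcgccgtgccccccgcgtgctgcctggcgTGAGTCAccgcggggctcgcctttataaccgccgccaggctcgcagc
Fblim1: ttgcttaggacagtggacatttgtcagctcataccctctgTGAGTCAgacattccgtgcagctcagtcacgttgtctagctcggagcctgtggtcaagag
Tfpi2: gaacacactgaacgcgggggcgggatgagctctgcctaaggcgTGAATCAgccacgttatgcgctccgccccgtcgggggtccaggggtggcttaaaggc
Dmkn: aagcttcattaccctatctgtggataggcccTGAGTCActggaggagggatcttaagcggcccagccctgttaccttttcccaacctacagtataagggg
Socs3: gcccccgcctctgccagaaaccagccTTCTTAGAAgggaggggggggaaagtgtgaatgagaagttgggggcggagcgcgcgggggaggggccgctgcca
The first base of the motif lay 69, 67, 80, 77 and 89 bases before the start site in Plaur, Prok2, Fblim1, Tfpi2 and Dmkn, and 154 bases before it in Socs3. A match of letters shows no binding.

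Of the CC chemokines, which draw monocytes and other leukocytes out of the blood, Ccl2 responded less in engrafted dura. Ccl2, the main attractant of Ccr2-bearing monocytes, read 8.13, 8.43 and 8.52 in engrafted stroke dura and 8.01, 8.06 and 8.10 in engrafted naive dura, against 10.29, 9.33 and 9.37 in wild-type stroke dura and 7.92, 8.01 and 7.47 in wild-type naive dura. It rose 1.86 in wild type, against an estimate of 0.30 in engrafted dura, with a difference of -1.56 ± 0.28 (adjusted p = 0.0497). This call was the nearest to the threshold and was kept in 3 of the 12 fits without 1 array (highest adjusted p 0.162). Ccl7, a related attractant, read 8.20, 8.74 and 8.81 in engrafted stroke dura and 8.29, 7.99 and 7.90 in engrafted naive dura, against 9.93, 9.35 and 9.03 in wild-type stroke dura and 8.33, 8.05 and 7.79 in wild-type naive dura. Its groups were ordered alike, but the difference of -0.86 ± 0.30 (adjusted p = 0.254) did not pass. Ccl3 (difference -0.62 ± 0.20 (adjusted p = 0.235)) and Ccl4 (-0.35 ± 0.10 (adjusted p = 0.202)) did not pass either. Over the list 1 of 15 genes passed, lower, 3 had a positive difference and the median was -0.28 (-0.16 without the 5 arrays lowest in Ttr). In the responses themselves 5 CC chemokines rose in wild type (6.24% of all probe sets did), and 0 rose in engrafted dura (0.878%).

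Among CXC chemokines 0 of 11 passed by limma (3 at an unadjusted p under 0.05) and the median was 0.00. The neutrophil attractant Cxcl1 read 7.29, 7.14 and 7.31 in engrafted stroke dura and 7.21, 7.30 and 7.32 in engrafted naive dura, against 7.42, 7.60 and 7.35 in wild-type stroke dura and 6.89, 6.97 and 6.87 in wild-type naive dura, with a difference of -0.57 ± 0.12 (adjusted p = 0.0866) that passed with array weights (0.0366) and after a second quantile normalization (0.0372). For Cxcl1 engrafted minus wild type was 0.37 ± 0.08 in naive dura and -0.21 ± 0.08 after stroke. Cxcl3, another ligand of the same receptor, gave -0.37 ± 0.11 (adjusted p = 0.203) with all group means below the lower quartile. Cxcl9, which attracts T cells, ran the other way at 0.82 ± 0.36 (adjusted p = 0.354).

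In the interleukin 6 family, whose ligands signal through gp130 to STAT3, Socs3 alone passed of 12 measured genes; 2 had a positive difference and the median was -0.40 (-0.23 without the dimmest probe sets, which leaves fewer members). In engrafted dura 0 of them rose (0.878% of all probe sets did) and in wild-type dura 7 (6.24%), so the engrafted count is near the share over all probe sets. Il11, a fibroblast cytokine, read 6.81, 6.59 and 6.82 in engrafted stroke dura and 6.48, 6.55 and 6.67 in engrafted naive dura, against 8.75, 7.63 and 7.81 in wild-type stroke dura and 6.49, 6.64 and 6.39 in wild-type naive dura. All wild-type stroke arrays lay above the others, with array 1 far above its 2 group mates, and the difference of -1.38 ± 0.28 (adjusted p = 0.0876) passed without wild-type stroke 1 (-1.04, adjusted p = 0.0105) or without wild-type stroke 2 (adjusted p = 0.0268), and with array weights (-1.55, adjusted p = 0.0386). Lif, leukaemia inhibitory factor, read 6.72, 6.84 and 6.55 in engrafted stroke dura and 6.54, 6.61 and 6.71 in engrafted naive dura, against 7.24, 6.96 and 7.56 in wild-type stroke dura and 6.37, 6.52 and 6.47 in wild-type naive dura, with a difference of -0.72 ± 0.17 (adjusted p = 0.152); it passed without wild-type stroke 2 (adjusted p = 0.0336). Il6 itself read 4.54, 6.25 and 4.87 in engrafted stroke dura and 4.45, 4.56 and 4.51 in engrafted naive dura, against 6.30, 5.14 and 8.15 in wild-type stroke dura and 4.44, 4.75 and 4.52 in wild-type naive dura. Its stroke arrays spread widely in both categories, the means of all groups but wild-type stroke lay below the lower quartile, and the difference of -1.24 ± 0.75 (adjusted p = 0.48) had a 95% interval of -2.83 to 0.34.

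The provisional matrix is the loose scaffold laid down after injury. Of 13 measured genes 2 passed, Has2 and Plaur, both lower, 0 had a positive difference and the median was -0.35; 2 rose in engrafted (0.878% of all probe sets) and 6 in wild-type dura (6.24%). Has2, which makes hyaluronan, read 5.97, 6.19 and 6.16 in engrafted stroke dura and 5.82, 5.75 and 5.85 in engrafted naive dura, against 7.25, 6.65 and 6.98 in wild-type stroke dura and 5.78, 5.57 and 5.78 in wild-type naive dura, with both naive means below the lower quartile, and had a difference of -0.95 ± 0.16 (adjusted p = 0.0387). Plaur, the receptor for urokinase, read 7.99, 8.35 and 8.42 in engrafted stroke dura and 7.74, 8.08 and 7.94 in engrafted naive dura, against 9.05, 9.19 and 9.29 in wild-type stroke dura and 7.73, 7.89 and 7.89 in wild-type naive dura, with a difference of -1.01 ± 0.18 (adjusted p = 0.044). Lox, the enzyme that cross-links collagen, had a difference of -1.01 ± 0.23 (adjusted p = 0.138) and did not pass. The calls of Has2 and Plaur were each kept in 3 of the 12 fits without 1 array (highest adjusted p 0.14 and 0.162).

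Among metalloproteinases and their inhibitors 1 of 16 passed, lower, 2 had a positive difference and the median was -0.33; 2 rose in engrafted (0.878% of all probe sets) and 10 in wild-type dura (6.24%). Adamts5, which cuts aggrecan and versican, read 10.07, 10.37 and 10.13 in engrafted stroke dura and 10.01, 9.99 and 10.14 in engrafted naive dura, against 10.78, 10.70 and 11.02 in wild-type stroke dura and 9.90, 9.35 and 9.44 in wild-type naive dura. Its engrafted naive arrays lay above all wild-type naive arrays, and the difference was -1.13 ± 0.19 (adjusted p = 0.0285), kept in 4 of the 12 fits (highest adjusted p 0.119). Mmp3, stromelysin 1, rose most of all genes in both categories and read 9.51, 9.84 and 9.59 in engrafted stroke dura and 6.36, 6.81 and 6.70 in engrafted naive dura, against 10.83, 11.09 and 11.12 in wild-type stroke dura and 6.72, 6.91 and 6.79 in wild-type naive dura. The response was 8.11-fold in engrafted and 18.5-fold in wild-type dura, and the difference of -1.19 ± 0.25 (adjusted p = 0.106) did not pass except with array weights (adjusted p = 0.0491). Mmp9, gelatinase B, rose in wild type but had an engrafted estimate of -0.16 ± 0.21, with a difference of -1.30 ± 0.29 (adjusted p = 0.138). For Mmp9 engrafted minus wild type was 1.08 ± 0.21 in naive dura and -0.22 ± 0.21 after stroke, so the naive part was the larger. The Mmp3 response was 3.02 ± 0.18 in engrafted, 0.88 ± 0.18 in deficient and 4.21 ± 0.18 in wild-type dura.

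All 16 collagen chains measured had a negative difference (median -0.25), though 0 passed by limma and 5 had an unadjusted p under 0.05. The basement membrane chains Col4a1 and Col4a2 gave -0.43 ± 0.12 (adjusted p = 0.198) and -0.42 ± 0.14 (adjusted p = 0.239), and Col18a1 gave -0.35 ± 0.11 (adjusted p = 0.233). In the responses 0 chains rose in engrafted (0.878% of all probe sets) and 7 in wild-type dura (6.24%). The list median of engrafted minus wild type was -0.08 after stroke and 0.19 in naive dura. The median difference was -0.09 without the 5 arrays lowest in Ttr and -0.11 without wild-type stroke 2. Tfpi2, an inhibitor of matrix-degrading serine proteases that is in no list, read 8.02, 8.22 and 8.43 in engrafted stroke dura and 8.04, 7.90 and 7.90 in engrafted naive dura, against 9.55, 9.25 and 9.50 in wild-type stroke dura and 7.71, 8.05 and 7.82 in wild-type naive dura, with a difference of -1.30 ± 0.20 (adjusted p = 0.0177), kept in 7 of the 12 fits (highest adjusted p 0.0555).

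In the epithelial barrier list, genes known from skin and other lining tissues, 2 of 14 passed, both lower, 3 had a positive difference and the median was -0.25. Of the 14 genes 2 rose in engrafted dura (median -0.02), against 0.878% of all probe sets. In wild-type dura 4 rose (median 0.13), against 6.24%. Reg3g, a lectin that binds bacteria in the gut and skin, read 5.63, 6.23 and 6.12 in engrafted stroke dura and 5.33, 5.36 and 5.44 in engrafted naive dura, against 8.37, 7.55 and 9.14 in wild-type stroke dura and 5.57, 5.55 and 5.38 in wild-type naive dura. Means of all groups but wild-type stroke lay below the lower quartile, so that the size of its rise is uncertain, and the difference was -2.24 ± 0.37 (adjusted p = 0.0285). Tgm1, the transglutaminase that cross-links the envelope of skin cells, read 7.96, 8.05 and 8.86 in engrafted stroke dura and 7.73, 7.73 and 7.89 in engrafted naive dura, against 10.02, 10.01 and 9.35 in wild-type stroke dura and 7.56, 7.53 and 7.44 in wild-type naive dura, with a difference of -1.78 ± 0.28 (adjusted p = 0.0211). Engrafted stroke 3 stood above its group mates for this gene. Dmkn and Il22ra1 were called too and are in none of the lists. Dmkn, a secreted protein of the outer skin, read 7.51, 7.12 and 7.38 in engrafted stroke dura and 6.91, 7.33 and 7.19 in engrafted naive dura, against 8.48, 8.48 and 9.05 in wild-type stroke dura and 7.11, 7.21 and 7.03 in wild-type naive dura, with -1.36 ± 0.21 (adjusted p = 0.0211), and Il22ra1, a subunit of the interleukin 22 receptor of epithelia, read 7.59, 7.64 and 7.52 in engrafted stroke dura and 7.44, 7.50 and 7.39 in engrafted naive dura, against 8.40, 8.07 and 8.48 in wild-type stroke dura and 6.99, 7.12 and 7.39 in wild-type naive dura, with -1.01 ± 0.18 (adjusted p = 0.044). The calls were kept in 3, 5, 6 and 3 of the 12 fits without 1 array for Reg3g, Tgm1, Dmkn and Il22ra1.

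Krtdap, a keratinocyte differentiation protein, rose in both categories and read 7.29, 7.23 and 6.42 in engrafted stroke dura and 5.41, 5.33 and 5.34 in engrafted naive dura, against 8.28, 8.86 and 9.0 in wild-type stroke dura and 5.16, 5.63 and 5.27 in wild-type naive dura; both naive means lay below the lower quartile, the response was 1.62 ± 0.24 in engrafted and 3.36 ± 0.24 in wild-type dura, and the difference of -1.74 ± 0.34 (adjusted p = 0.0783) passed only without wild-type stroke 1 (adjusted p = 0.0406). Msln, mesothelin of serous linings, had responses of 1.44 ± 0.20 in engrafted and 2.71 ± 0.20 in wild-type dura and a difference of -1.27 ± 0.29 (adjusted p = 0.138).

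Hmox1, the enzyme that breaks down haem, read 9.26, 9.58 and 9.69 in engrafted stroke dura and 9.43, 9.32 and 9.46 in engrafted naive dura, against 11.15, 10.57 and 10.52 in wild-type stroke dura and 9.40, 9.18 and 9.29 in wild-type naive dura. Engrafted stroke and naive arrays overlapped, and the difference was -1.35 ± 0.24 (adjusted p = 0.0428), kept in 3 of the 12 fits (highest adjusted p 0.15). It was the only gene of 11 in the hypoxia-induced list that passed; the list median was 0.01, and the vessel-dilating peptide Adm gave -0.54 ± 0.17 (adjusted p = 0.231).

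Of 22 cell cycle genes measured, 8 rose in engrafted (median 0.84; 0.878% of all probe sets rose) and 19 in wild-type dura (median 1.07; 6.24%). The difference was negative for 21 (median -0.30; -0.13 without the 5 arrays lowest in Ttr and -0.11 without engrafted stroke 1), and 0 passed by limma (4 at an unadjusted p under 0.05). Aurkb, a mitotic kinase, read 8.40, 9.05 and 9.11 in engrafted stroke dura and 7.76, 7.98 and 8.26 in engrafted naive dura, against 9.38, 9.36 and 9.08 in wild-type stroke dura and 7.67, 7.71 and 7.69 in wild-type naive dura, with a difference of -0.73 ± 0.26 (adjusted p = 0.272). Pimreg, a regulator of mitotic exit outside this list, passed with -0.79 ± 0.11 (adjusted p = 0.00451) and was named after its value was seen.

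Genes of bone and its resorbing cells had the most negative list median, -0.64 over 13 genes, with 3 positive and 0 past the threshold by limma (8 at an unadjusted p under 0.05). Ocstamp, needed for osteoclast fusion, read 8.03, 7.95 and 7.99 in engrafted stroke dura and 8.03, 8.17 and 8.24 in engrafted naive dura, against 7.92, 8.47 and 8.27 in wild-type stroke dura and 7.61, 7.52 and 7.73 in wild-type naive dura, with a difference of -0.75 ± 0.15 (adjusted p = 0.0889) that passed without wild-type stroke 1 (adjusted p = 0.00762). Acp5, the acid phosphatase of osteoclasts, gave -1.28 ± 0.29 (adjusted p = 0.139), and Vdr, the vitamin D receptor, -0.75 ± 0.21 (adjusted p = 0.188). Engrafted minus wild type had a median of 0.08 after stroke, against 0.41 in naive dura. The amount of bone on each piece of dura was not measured.

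The 2 genes called with a positive difference were Arxes1 and Arxes2, neighbouring copies on the X chromosome that are expressed in fat cells. Both fell in wild-type dura. Their engrafted estimates were smaller in size and did not pass by limma (adjusted p = 0.154 for Arxes2 and 0.392 for Arxes1). Arxes2 read 7.07, 6.88 and 7.12 in engrafted stroke dura and 6.82, 6.45 and 6.34 in engrafted naive dura, against 6.78, 6.32 and 6.19 in wild-type stroke dura and 7.04, 7.45 and 7.33 in wild-type naive dura. Its wild-type arrays fell and its engrafted stroke arrays lay above the engrafted naive ones, with responses of 0.49 ± 0.15 in engrafted and -0.84 ± 0.15 in wild-type dura and a difference of 1.33 ± 0.21 (adjusted p = 0.0216). Arxes1 gave responses of 0.31 ± 0.13 in engrafted and -0.75 ± 0.13 in wild-type dura and a difference of 1.06 ± 0.19 (adjusted p = 0.044). The 2 genes are close copies, so that their probe sets may read the same transcripts, and each call was kept in 4 and 3 of the 12 fits for Arxes2 and Arxes1. The other 10 measured fat cell genes did not pass, and the list median was 0.00.

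The next positive differences did not pass. They were those of Zkscan2, a zinc finger protein (0.72 ± 0.14 (adjusted p = 0.0774)), Hlf, a clock-controlled transcription factor (0.56 ± 0.11 (adjusted p = 0.0783)), Cmbl, a hydrolase (1.10 ± 0.22 (adjusted p = 0.0783)), Ppp4r4, a subunit of protein phosphatase 4 (0.71 ± 0.15 (adjusted p = 0.0891)), Map2k6, a kinase of the p38 pathway (0.58 ± 0.12 (adjusted p = 0.1)), Runx1t1, a corepressor (0.55 ± 0.12 (adjusted p = 0.11)), Kcnt1, a potassium channel (0.85 ± 0.19 (adjusted p = 0.138)), and Rbm11, a splicing factor (0.66 ± 0.15 (adjusted p = 0.138)). All 8 fell in wild-type dura and had engrafted estimates between -0.16 and 0.21. For Zkscan2 and Rbm11 engrafted minus wild type was larger in size in naive dura (-0.51 ± 0.10 and -0.59 ± 0.11) than after stroke (0.21 ± 0.10 and 0.08 ± 0.11). The others had the larger part after stroke. Without engrafted stroke 2 Hlf, Cmbl and Kcnt1 passed (adjusted p = 0.0325, 0.0173 and 0.0156), as did Cmbl and Kcnt1 with array weights (0.0201 and 0.0315) and Zkscan2 without wild-type naive 1 (0.016).

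Hlf read 10.38, 10.18 and 10.37 in engrafted stroke dura and 10.23, 10.10 and 10.24 in engrafted naive dura, against 10.04, 9.98 and 9.88 in wild-type stroke dura and 10.37, 10.51 and 10.35 in wild-type naive dura. Of the 15 clock genes measured 0 passed by limma (5 at an unadjusted p under 0.05), 11 had a positive difference and the median was 0.14. Tef, a close relative of Hlf, gave 0.40 ± 0.10 (adjusted p = 0.175). Per3, a period gene, rose in engrafted dura (0.70, adjusted p = 0.0254) with a wild-type estimate of 0.19, and the difference was 0.51 ± 0.20 (adjusted p = 0.303). The time of day of sampling is not given in the sources used here.

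Immediate early genes of the Nr4a family, orphan nuclear receptors that respond within minutes to stimulation, had negative stroke responses. Nr4a3 fell in both categories and read 7.76, 7.75 and 8.06 in engrafted stroke dura and 9.37, 9.53 and 9.42 in engrafted naive dura, against 8.13, 7.33 and 7.99 in wild-type stroke dura and 9.60, 9.83 and 10.27 in wild-type naive dura, and its difference was 0.50 ± 0.31 (adjusted p = 0.497). Nr4a2 also fell in both (-0.74 ± 0.17 in engrafted and -1.57 ± 0.17 in wild-type dura), and Nr4a1 fell in wild type with an engrafted estimate that did not pass (-1.0 ± 0.26, adjusted p = 0.0847). Their differences of 0.82 ± 0.24 (adjusted p = 0.198) and 0.95 ± 0.37 (adjusted p = 0.3) did not pass. In naive dura engrafted minus wild type was -0.84 ± 0.17 for Nr4a2 and -1.37 ± 0.26 for Nr4a1. After stroke it was -0.02 ± 0.17 for Nr4a2 and -0.43 ± 0.26 for Nr4a1. Fosl1 was the only member of the 22 genes that passed, the list median was -0.01, and Ier3, a stress-induced gene, gave -0.53 ± 0.16 (adjusted p = 0.202).

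Granule genes of granulocyte precursors had positive differences. The difference was above 0 in all 12 (median 0.91), but 0 passed in it by limma (4 at an unadjusted p under 0.05). In engrafted dura 4 rose (median 1.52), against 0.878% of all probe sets, and in wild-type dura 2 (median 0.54), against 6.24%. Ctsg, cathepsin G, read 8.88, 10.34 and 10.49 in engrafted stroke dura and 7.51, 7.63 and 8.02 in engrafted naive dura, against 7.64, 9.47 and 7.70 in wild-type stroke dura and 7.48, 7.37 and 7.48 in wild-type naive dura. It rose in engrafted dura (2.19, adjusted p = 0.0197), where all stroke arrays lay above the naive ones, while among wild-type stroke arrays 1 of 3 was high, and the difference was 1.36 ± 0.59 (adjusted p = 0.346). Prtn3, proteinase 3, gave 1.17 ± 0.44 (adjusted p = 0.282), and Chil3, a chitinase-like protein of mouse neutrophils and macrophages, 0.92 ± 0.58 (adjusted p = 0.505). Ltf, lactoferrin, and Ngp, neutrophilic granule protein, gave 1.38 ± 0.49 (adjusted p = 0.27) and 1.25 ± 0.54 (adjusted p = 0.346).

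Red cell precursor genes are set beside them here. List scores (mean of centred log2 values) of the granulocyte precursor genes were 0.48, 1.11 and 1.70 in engrafted stroke and -0.57, -0.52 and 0.11 in engrafted naive dura, against -0.06, 1.03 and 0.02 in wild-type stroke and -0.10, -0.30 and -0.27 in wild-type naive dura. Those of 7 red cell precursor genes were 0.14, 0.37 and 1.10 in engrafted stroke and -0.11, 0.00 and 0.80 in engrafted naive dura, against -0.37, -0.25 and -0.51 in wild-type stroke and -0.05, -0.14 and 0.07 in wild-type naive dura. Array 3 was highest for both lists in both engrafted groups, and wild-type stroke 2 was high for the first list only. All 7 red cell genes had a positive difference (median 0.44), with Slc4a1, the anion exchanger of red cells, at 1.21 ± 0.53 (adjusted p = 0.351). Without the 2 arrays highest in these genes the medians were 0.83 for granulocyte precursor and 0.46 for red cell genes, without the 5 arrays lowest in Ttr 1.60 and 0.78, and without engrafted stroke 3 alone 0.54 and 0.21. Without engrafted naive 3 alone the red cell median was 0.69. The mice were perfused with saline before dissection, and the part of blood or bone marrow in these values was not tested.

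Mature neutrophil genes were split. Of 12 measured, 2 rose in engrafted (median 0.74), against 0.878% of all probe sets, and 6 in wild-type dura (median 0.52), against 6.24%. The difference was positive for 6 of them (median -0.12, range -1.95 to 1.38). The sign of this median is not settled: it was 0.76 without the dimmest probe sets, 0.00 without the 5 arrays lowest in Ttr and 0.05 without engrafted stroke 1. Ly6g, the neutrophil surface marker, rose in engrafted dura (1.75, adjusted p = 0.0242) with a wild-type estimate of 0.41 and a difference of 1.34 ± 0.49 (adjusted p = 0.277), whereas Prok2 and Mmp9, of the same list, had the negative differences given above. Ifitm6, a myeloid gene, rose in both (1.87 ± 0.30 in engrafted and 1.04 ± 0.30 in wild-type dura) with a difference of 0.83 ± 0.42 (adjusted p = 0.406).

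Of 12 monocyte and infiltrating macrophage genes Arg1 alone passed, lower; 3 had a positive difference and the median was -0.10. Msr1, a scavenger receptor, rose in both categories (0.75 ± 0.14 in engrafted and 1.12 ± 0.14 in wild-type dura), with a difference of -0.37 ± 0.20 (adjusted p = 0.444), and Cd14, the co-receptor for endotoxin, gave -0.32 ± 0.17 (adjusted p = 0.42). Resident macrophage genes, such as Mrc1 at 0.28 ± 0.19 (adjusted p = 0.521), had a median of 0.05 over 12, with 0 called by limma (0 at an unadjusted p under 0.05).

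Interferon-stimulated genes had a median difference of 0.45 (12 of 14 positive, 0 called by limma, 1 at an unadjusted p under 0.05). Ifit3, which acts against viral RNA, read 11.37, 10.87 and 11.20 in engrafted stroke dura and 10.94, 10.54 and 10.78 in engrafted naive dura, against 11.15, 10.63 and 10.52 in wild-type stroke dura and 11.45, 11.18 and 10.46 in wild-type naive dura. The arrays overlapped throughout, and the difference was 0.66 ± 0.31 (adjusted p = 0.375). The 7 class II antigen presentation genes all had a difference at or above 0 (median 0.16), and 0 fell in engrafted (0.236% of all probe sets) and 4 in wild-type dura (4.63%); H2-Aa gave 0.36 ± 0.18 (adjusted p = 0.402).

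Of 10 neuron genes 0 fell in engrafted dura (0.236% of all probe sets did; median response -0.10) and 4 fell in wild-type dura (4.63%; median -0.81). The difference was positive in all 10 (median 0.83), and 0 passed by limma (3 at an unadjusted p under 0.05). Calb1, a calcium-binding protein of neurons that had the largest fall in wild type, read 10.30, 9.02 and 10.96 in engrafted stroke dura and 10.28, 9.96 and 10.03 in engrafted naive dura, against 8.30, 7.55 and 8.43 in wild-type stroke dura and 9.77, 10.88 and 10.40 in wild-type naive dura, and the difference of 2.26 ± 0.60 (adjusted p = 0.185) passed without engrafted stroke 2 (adjusted p = 0.033). Astrocyte genes had a median of 0.50 and oligodendrocyte genes 0.41, with Aqp4, the water channel of astrocytes, at 0.68 ± 0.23 (adjusted p = 0.239) and the myelin protein gene Mbp at 0.69 ± 0.25 (adjusted p = 0.274). The amount of brain tissue on each piece of dura was not measured. With the neuron and choroid plexus scores as covariates 9 of the 23 calls remained.

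The choroid plexus list had the largest median, 0.96 (9 of 10 positive, 0 called by limma, 0 at an unadjusted p under 0.05), and it rested on single arrays. Ttr, the carrier of thyroid hormone made by the choroid plexus, read 13.55, 13.55 and 13.03 in engrafted stroke dura and 13.57, 13.61 and 10.17 in engrafted naive dura, against 13.65, 9.03 and 13.78 in wild-type stroke dura and 13.72, 13.38 and 13.68 in wild-type naive dura. Without the 5 arrays of the series lowest in Ttr the list median was -0.99. With those arrays left out the neuron median was 0.95 and the interleukin 6 family median -0.39, and 8 of the 23 calls remained.

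**Figure D4:**
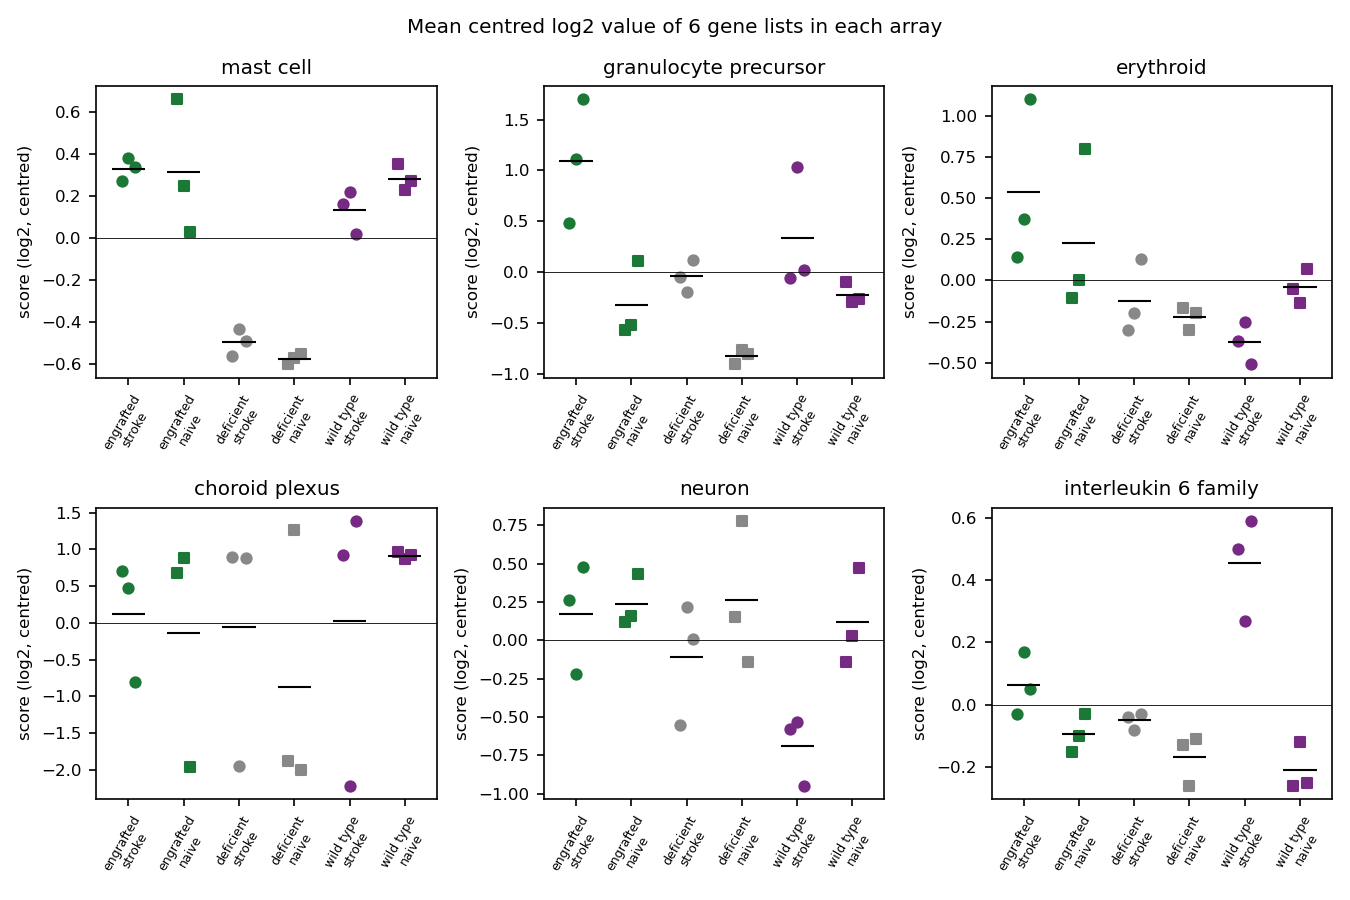
Score of 6 gene lists (mean of the members' log2 values, each centred over the 18 arrays) in every array, with engrafted, deficient and wild-type dura from left to right, circles for stroke, squares for naive and bars for means of 3. Mast cell scores separate the deficient arrays, choroid plexus scores split within groups, and the 3 wild-type stroke arrays are highest in the interleukin 6 family (0.50, 0.27 and 0.59).

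Across the whole response, 241 probe sets passed in engrafted dura (1.11%; 190 higher, or 0.878%, and 51 lower, or 0.236%) and 2352 in wild-type dura (10.9%; 1351 higher, or 6.24%, and 1001 lower, or 4.63%). The 2 responses share no array, only the estimate of the spread. Of the 1351 wild-type rises 1146 (84.8%) had the same sign in engrafted dura, where the median was 0.19, beside 0.44 in wild type, and of the 1001 falls 736 (73.5%) did, with medians of -0.08 in engrafted and -0.46 in wild-type dura. Over all tested probe sets 55.1% had the same sign. Choosing probe sets on 1 response favours a larger size in it, so the medians given for each set are a description. In the other direction 236 of the 241 engrafted calls (97.9%) had the same sign in wild type, with medians of 0.53 in engrafted and 0.61 in wild-type dura, and 36.1% were smaller in wild type. Calls shared by both responses were 205, which is 85.1% of the engrafted and 8.72% of the wild-type calls, and 0 were called in opposite directions.

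The largest rises in engrafted dura were those of Mmp3, Chil3, Ctsg, Ifitm6 and Prtn3, and the largest falls those of Nr4a3 (-1.59), Comp (-1.38), Chad (-1.33), Slc6a14 (-1.29) and Pla2g2d (-1.24). In wild-type dura Comp and Chad, of cartilage and tendon matrix, fell by 1.91 and 1.84, and Slc6a14, an amino acid transporter, fell by 1.85. Pla2g2d, a secreted phospholipase, fell by about as much in both (-1.24 ± 0.18 in engrafted and -1.18 ± 0.18 in wild-type dura), with a difference of -0.06 ± 0.26 (adjusted p = 0.937).

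**Figure D5:**
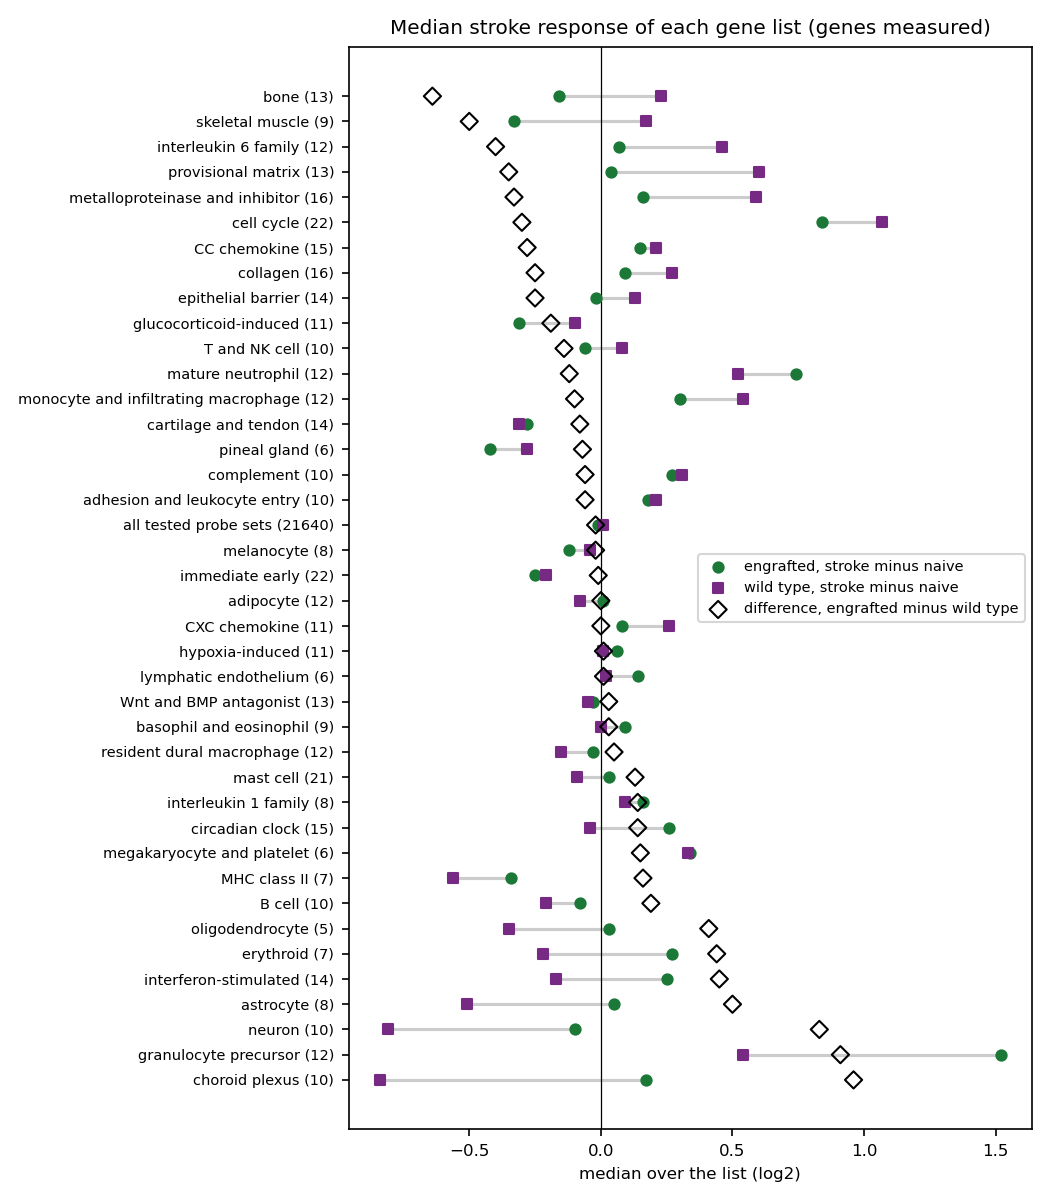
Median log2 stroke response of each of 39 gene lists and of all tested probe sets in engrafted (green circles) and wild-type dura (purple squares), and median difference (open diamonds), with the number of genes measured in brackets. Matrix, interleukin 6 and bone lists lie at the top with negative differences, and granulocyte precursor, neuron and choroid plexus lists at the bottom with positive ones.

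A further 4 called genes were named after their values were seen. Fblim1, which links filamin to adhesion sites, read 7.87, 8.08 and 8.16 in engrafted stroke dura and 7.84, 8.01 and 8.02 in engrafted naive dura, against 8.43, 8.54 and 8.47 in wild-type stroke dura and 7.55, 7.58 and 7.50 in wild-type naive dura, with a difference of -0.86 ± 0.14 (adjusted p = 0.0216). Vill, a villin-like actin-binding protein, rose in both categories (0.47 ± 0.08 in engrafted and 1.16 ± 0.08 in wild-type dura), with -0.68 ± 0.11 (adjusted p = 0.0285). Phlda3, a p53-induced inhibitor of Akt, gave -0.64 ± 0.11 (adjusted p = 0.0375). G530011O06Rik, a gene model with no established name, had the most negative difference of all at -3.09 ± 0.39 (adjusted p = 0.00394) and read 7.97, 7.12 and 7.63 in engrafted stroke dura and 8.75, 7.66 and 8.42 in engrafted naive dura, against 9.83, 9.46 and 9.82 in wild-type stroke dura and 7.17, 7.65 and 7.12 in wild-type naive dura; RefSeq lists promoters for it on both X and Y, so its probe set may read near-identical copies and its value is uncertain. The calls of Fblim1, Vill and Phlda3 were kept in 4, 3 and 3 of the 12 fits without 1 array.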

How the data were processed

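Each of 18 dura pieces went on its own Affymetrix array. The deposited table holds log2 summary values per probe set; per the submitters' processing notes the tools were RMA, affy and R 3.0.0, with no role stated, and the build, scan date and batch are not given in the sources used here. Of 34760 probe sets, 21640 with exactly 1 gene symbol (19937 genes) were tested, 1321 had several symbols and 11799 had none. Symbols of 21553 were found in the RefSeq table of GRCm38.p6. In limma 3.58.1 (R 4.3.3), all 18 arrays entered a fit of group means, moderated with eBayes (degrees of freedom: residual 12, prior 3.41). Benjamini-Hochberg adjustment ran over all tested probe sets within each comparison, and the threshold was 0.05. A gene with several probe sets (954 genes) is shown by the one with the highest mean.

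On simulated data with 21640 probe sets, 36.1%, 84.8% and 98.5% of differences of 0.5, 1 and 2 (log2) were recovered for the difference of responses, with 5.32% false calls. The noise was normal and independent for each probe set, and the changes were placed in the wild-type stroke arrays only. No outlying array or shared tissue content was simulated, so these shares need not hold for the measured arrays.

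Named genes are Il6, Ccl7, Kit, Cpa3 and Mcpt4; in the difference, the 15 largest in each direction among those past the threshold, or, where fewer passed, those and the smallest p up to 10; the 5 largest rises and falls of each response; and up to 3 members of each list with the smallest p. The members, the 39 lists (481 genes, 441 measured) and the rule were chosen with earlier results of these data known. Lists are described by counts and medians without a set test. Alternatives were the 12 arrays alone, trended and robust variance, array weights, leaving out the dimmest probe sets (means under their lower quartile), a second quantile normalization, a replicate block, brain tissue scores as covariates, leaving out the 5 arrays lowest in Ttr or each array in turn, testing every probe set, and requiring a 1.5-fold change. Figures were drawn with matplotlib 3.10.9 in Python 3.11.15.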

Additional observations from a re-analysis of the deposited data

Results flagged for a closer look

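For 23 genes the test of the difference between the 2 stroke responses itself passed, which is why they are listed for a closer look; values are log2 differences, engrafted minus wild type. Those that kept the call in every fit without 1 array were Arg1 (-2.03), Fosl1 (-0.95), Serpinb9b (-1.81), Prok2 (-1.95), Tnfrsf12a (-1.14), Socs3 (-1.15), Pimreg (-0.79) and G530011O06Rik (-3.09). Of these, Fosl1, Prok2, Socs3 and Pimreg lost it without the 5 arrays lowest in Ttr. Called in the epithelial barrier list were Reg3g (-2.24) and Tgm1 (-1.78). In the provisional matrix and metalloproteinase lists they were Has2 (-0.95), Plaur (-1.01) and Adamts5 (-1.13). The remaining lower genes were Dmkn (-1.36), Il22ra1 (-1.01), Tfpi2 (-1.30), Ccl2 (-1.56), Hmox1 (-1.35), Fblim1 (-0.86), Vill (-0.68) and Phlda3 (-0.64). Higher were Arxes2 (1.33) and Arxes1 (1.06). Groups held 3 arrays each, so single outlying arrays were not tested for.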

How the results depend on the processing

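Against 23 calls in the difference, 241 in the engrafted and 2352 in the wild-type response, the fit on the 12 arrays alone gave 10 in the difference and 159 in engrafted dura, array weights 42 and 394, and the brain tissue covariates 10 (1 higher, 9 lower) and 530. Without the 5 arrays lowest in Ttr the counts were 8, 98 and 1368 in wild type, and with a minimum change of 1.5-fold 1, 2 and 65. Over all probe sets engrafted dura had 152 calls. Without the 2 arrays highest in erythroid genes, added after the data were seen, the difference had 3 and engrafted dura 72. Leaving out 1 array in turn gave 8 to 52 calls in the difference, 60 to 396 in engrafted and 1371 to 2211 in wild-type dura. Fits without arrays have fewer samples; for the other changes the cause was not tested.

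With the replicate number as a block the difference had 11 calls and engrafted dura 146. The labels do not say what the replicate numbers stand for. Deviations of same-numbered arrays correlated at -0.46 to 0.60, highest for engrafted stroke 3 with engrafted naive 3. Of 12 arrays, 4 correlated best with an array of their own number.

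Differences that changed sign, none of them called, were those of Nr4a3 (-0.03), Pla2g2d (0.07), Ppbp (-0.09) and Sag (0.32) with the covariates; Mcpt4 (-0.02), Vcam1 (-0.01), Ttr (-0.33), Htr2c (-0.96) and Sostdc1 (-1.11) without the 5 arrays lowest in Ttr; Cpa3 (-0.16), Mcpt4 (-0.19) and Pla2g2d (0.03) without the erythroid-high arrays; and, without 1 array, Pla2g2d (range -0.20 to 0.09; 0.07 without wild-type naive 3, 0.09 without wild-type stroke 1), Sag (range -0.48 to 0.04; 0.04 without engrafted stroke 3), and Cpa3 (-0.14 to 0.93) and Mcpt4 (-0.13 to 1.0), both lowest without engrafted naive 3. Of the other alternative values for single genes and lists 4301 stayed on the same side of the threshold or within the spread, 262 fell below it, 17 rose above it and 67 without a test moved. Without the 5 arrays lowest in Ttr the medians of B cell, T and NK cell, interleukin 1 and lymphatic genes were 0.34, -0.01, 0.04 and 0.15. Those of mast cell, monocyte, resident macrophage, complement, adhesion and melanocyte genes were then 0.07, -0.01, 0.15, 0.03, 0.03 and -0.16. The megakaryocyte and platelet median was 0.28 there. Without the 2 arrays highest in red cell precursor genes it was 0.04, and the mast cell and CXC chemokine medians were 0 and -0.13. With the covariates the medians of neuron genes, which are in the covariate, bone and provisional matrix were 0.01, -0.36 and -0.20. Signal at the dim end of the array limits genes with group means below the lower quartile, such as Arg1, Reg3g, Has2, Krtdap, Cxcl3 and Il6.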

Other observations

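Lymphatic endothelial genes were split in the difference of the responses, with 3 of 6 positive and a median of 0.01. Pdpn, podoplanin, read 11.41, 11.40 and 11.38 in engrafted stroke dura and 11.29, 11.34 and 11.37 in engrafted naive dura, against 11.88, 11.71 and 11.93 in wild-type stroke dura and 11.31, 11.36 and 11.39 in wild-type naive dura. It rose in wild type (adjusted p = 0.000226) with an engrafted estimate of 0.06 ± 0.07, and the difference was -0.43 ± 0.09 (adjusted p = 0.123). Reln, the matrix protein reelin, and Prox1, the transcription factor of lymphatic identity, had differences of 1.05 ± 0.27 (adjusted p = 0.175) and 0.49 ± 0.17 (adjusted p = 0.259), and Reln passed without engrafted stroke 2 (1.34, adjusted p = 0.00783). Both fell in wild-type dura.

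Il33, an alarmin of the interleukin 1 family made by stromal cells, rose in wild-type dura (adjusted p = 0.00333), with responses of 0.25 ± 0.13 in engrafted and 0.66 ± 0.13 in wild-type dura and a difference of -0.41 ± 0.18 (adjusted p = 0.349); the list median was 0.14, with 5 of 8 positive. Prg4, lubricin, rose in both categories (1.20 ± 0.12 in engrafted and 1.84 ± 0.12 in wild-type dura) and Fmod, fibromodulin, fell in both (-0.67 ± 0.09 in engrafted and -1.19 ± 0.09 in wild-type dura); their differences were -0.64 ± 0.16 (adjusted p = 0.175) and 0.53 ± 0.13 (adjusted p = 0.175), and the cartilage and tendon median was -0.08, with 6 of 14 positive (0.18 without the 5 arrays lowest in Ttr). Sfrp2, a secreted Wnt antagonist, fell in both (-1.20 ± 0.17 in engrafted and -1.61 ± 0.17 in wild-type dura), and the Wnt and BMP antagonist median was 0.03, with 9 of 13 positive. Complement gene C2 had a difference of 0.51 ± 0.15 (adjusted p = 0.202) and Icam1, an adhesion molecule of vessels, -0.38 ± 0.14 (adjusted p = 0.292), with list medians of -0.06 for complement and -0.06 for adhesion genes.

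In the lists of other cells, 0 genes passed by limma and the medians were 0.03 for basophils and eosinophils (2 of 9 genes at an unadjusted p under 0.05), 0.15 for megakaryocytes and platelets (0 of 6), 0.19 for B cells (2 of 10), -0.14 for T and NK cells (1 of 10), -0.02 for melanocytes (1 of 8), -0.07 for the pineal gland (0 of 6) and -0.50 for skeletal muscle (0 of 9). The skeletal muscle median was -0.02 without the 5 arrays lowest in Ttr, -0.23 without the 2 highest in red cell precursor genes and -0.19 without wild-type stroke 2 alone, and that of basophils and eosinophils was 0.64 without the dimmest probe sets. The glucocorticoid-induced list had a median of -0.19 (1 of 11), with Klf9 at -0.31 ± 0.11 (adjusted p = 0.24).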
